A study of Sus scrofa with 6 samples.

Results

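The contractile apparatus of smooth muscle was followed gene by gene in the abdominal aorta of pigs fed 2 diets. Its 10 genes, ACTA2, MYH11, CNN1, TAGLN, SMTN, LMOD1, DES, MYLK, MYL9 and CALD1, were found by their symbols, and each matched 1 of the 30477 genes in the deposited table. All 10 passed the filter on low values that left 15384 genes for testing. Total RNA had been extracted from the abdominal aorta of male Wuzhishan pigs, a Chinese miniature breed, and sequenced as 1 library per pig. The 3 pigs of the NC group had been fed normal chow for 6 months and the 3 pigs of the HFCF group a diet high in fat, cholesterol and fructose for the same time. The labels give an age of 3 to 4 months for both groups, the methods give an older one, and neither names a transgene or drug. The study used this diet to produce atherosclerosis, and the question here is how the genes that make a smooth muscle cell contract stood in the 2 groups.

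Smooth muscle cells of the arterial media contract when myosin filaments pull on actin filaments anchored in dense bodies and in dense plaques of the membrane. Contraction starts when a calcium-activated kinase phosphorylates the regulatory light chain of myosin, and it ends when a phosphatase removes that phosphate. Medial cells that carry these proteins in abundance are called contractile, and in atherosclerotic arteries smooth muscle cells are known to lose part of this set. Levels are given as FPKM, a fragment count divided by the length of the exons and by the mapped reads of the library, so that levels of different genes can be set side by side. Differences are given as log2 fold changes of FPKM + 0.1, HFCF minus NC, so that a value of -1 is a halving. A gene was called when limma's adjusted p was under 0.05, with Benjamini-Hochberg adjustment over all tested genes. The p-values measure the spread between 3 pigs in each group.

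The mean level of each contractile mRNA was lower in the HFCF aorta, with 1 exception, but not every fall passed the test. DES, SMTN, CNN1, MYH11, ACTA2 and MYLK fell, with log2 fold changes of -1.48, -1.37, -1.17, -1.08, -0.98 and -0.87. MYL9, LMOD1 and TAGLN had lower means in the HFCF group and did not pass the test. CALD1 rose by 0.69. So 6 of the 10 genes were called lower, where 6.16% of all tested genes were, and 1 was called higher, where 22.8% of all tested genes were. The median log2 fold change was -0.92 over the 10 genes and 0.32 over all tested genes, a difference of -1.25. In 7 of the 10 genes every HFCF pig was below every NC pig, against 12.1% of all tested genes, and in CALD1 every HFCF pig was above every NC pig, against 36.1%. The study's thresholds, a fold change past 2 in either direction and p under 0.05, taken here as the ratio of group mean FPKM and limma's unadjusted p, were met by DES, SMTN, CNN1 and MYH11, 4 of the 10, against 4.82% of all tested genes in that direction. They were met in the other direction by 0 of the 10, against 20.7% of all tested genes.

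**Figure D1:**
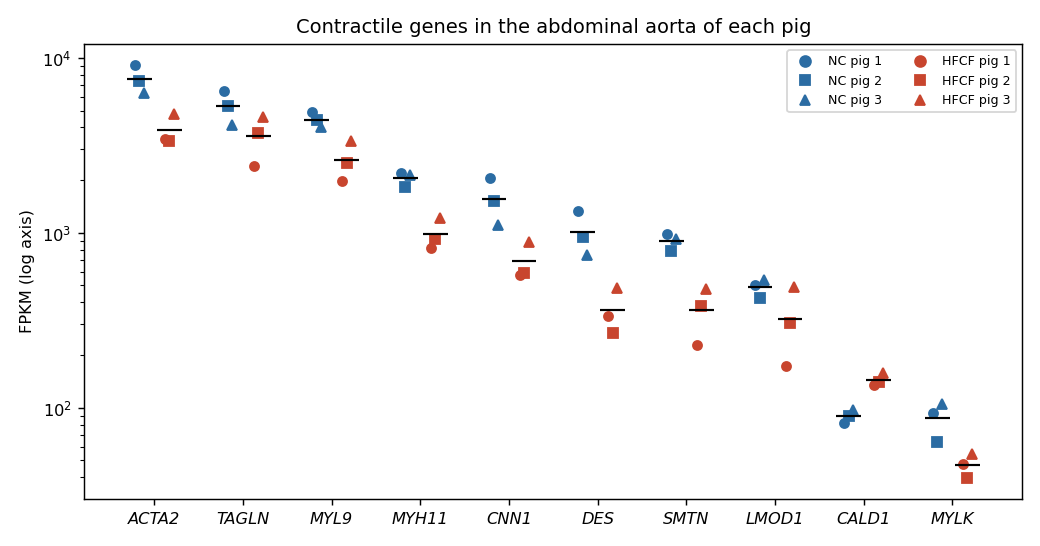
FPKM on a log axis for the 10 contractile genes in each of the 6 pigs, NC in blue and HFCF in red, with a bar at the mean of each group. The red symbols lie below the blue ones in 7 genes, the groups overlap in TAGLN and LMOD1, and in CALD1 the HFCF pigs (134.1 to 158.7) lie above the NC pigs (81.4 to 97.7).

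Some facts of the libraries bear on all of these values. The summed FPKM was 272207 to 287141 in the NC pigs against 330222 to 338690 in the HFCF pigs, and the 37 mitochondrial features held 4.65% to 6.93% of it in the NC group and 9.02% to 13.4% in the HFCF group. The absolute depth is unknown, since counts were not used here, and the steps between low FPKM values gave relative depths of 1 to 1.37. A list of 14 macrophage markers summed to 69.5 to 83.6 FPKM in the NC pigs against 968.3 to 2498 FPKM in the HFCF pigs. Of these 14 of the 14 were called higher, where 22.8% of all tested genes were. CD68 and the complement genes C1QA, C1QB and C1QC were among them. In whole tissue, fewer smooth muscle cells and less contractile mRNA in each cell cannot be told apart, and the part of the macrophage and mitochondrial RNA in the falls was not tested. Markers of striated muscle, which would reveal neighbouring skeletal muscle, summed to 3.97 to 13.5 FPKM in the NC group and 4.43 to 17.1 FPKM in the HFCF group, with 0 of the 8 tested called in limma and 1 lower at an unadjusted p under 0.05. MYL2 was listed at 0 in every pig but the first NC pig, and ACTA1 was listed at 0 in HFCF pigs 2 and 3. The first HFCF pig was the highest for ACTA1, TNNI2 and TNNT3, at 5.17, 6.66 and 0.604 FPKM. The highest NC values were 0.638, 0.585 and 0.0143 FPKM. Other markers went the other way, and that pig was the lowest of all for MYL3 (1.32 FPKM). It had 1.13 FPKM of CKM, against 3.84 and 4.21 FPKM in the first and second NC pigs. MYH2 was highest in the second HFCF pig (4.25 FPKM) and ACTC1 in the first NC pig (2.42 FPKM). The part of such RNA in the contractile values was not tested.

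The contractile genes were among the most abundant mRNAs of the aorta. ACTA2 had the highest FPKM of all genes in each of the 3 NC pigs, and it ranked 6, 9 and 3 in HFCF pigs 1, 2 and 3. With mitochondrial features left out it ranked 2, 5 and 1 in those HFCF pigs and 1 in each NC pig. TAGLN ranked 2 to 4 and MYL9 ranked 3 to 6 in the NC group, and they ranked 5 to 15 and 9 to 20 in the HFCF group. With mitochondrial features left out TAGLN ranked 2 to 3 in the NC group and 3 to 10 in the HFCF group. MYL9 then ranked 3 to 4 and 7 to 14. MYLK and CALD1 stood far below the others, at ranks 369 to 609 and 388 to 465 in the NC group. The 10 genes together made up 9.91%, 7.92% and 7.40% of the summed FPKM in the NC pigs against 3.00%, 3.63% and 4.98% in the HFCF pigs. The group means were 8.41% ± 1.33 and 3.87% ± 1.01 (SD, n = 3 each), and the groups did not overlap. The difference was -4.54 percentage points, with p = 0.1 in the exact two-sided permutation test, the smallest value that 3 pigs against 3 allow. With mitochondrial genes left out of the sum the difference was -4.51.

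Actin filaments of smooth muscle are built mainly from α-actin, the product of ACTA2 (ENSSSCG00000010447). Its FPKM was 9145, 7412 and 6298 in the NC pigs against 3454, 3359 and 4767 in the HFCF pigs. The lowest NC pig stood above the highest HFCF pig. The means were 7618 ± 1435 and 3860 ± 786.6 (SD, n = 3 each), and the log2 fold change was -0.98 (SE 0.27), with an adjusted p of 0.0356 in limma. ACTA2 alone took 2.72% ± 0.49 of the summed FPKM in the NC group and 1.15% ± 0.25 in the HFCF group. This call was among the less firm ones, and 9 of 16 alternative settings kept it.

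Calponin 1, transgelin, smoothelin, leiomodin 1 and caldesmon all bind the actin filament. Of their genes CNN1 and SMTN fell, CALD1 rose, and TAGLN and LMOD1 did not pass the test. CNN1 (ENSSSCG00000013614) encodes calponin, which restrains the ATPase of actin-bound myosin. It stood at 2069.6, 1517 and 1101 FPKM in the NC pigs against 574.3, 592.8 and 889.6 FPKM in the HFCF pigs, without overlap. Its log2 fold change was -1.17 (SE 0.29, limma adjusted p 0.0255), a mean 2.25-fold lower in the HFCF group, and 10 of 16 alternative settings kept the call. SMTN (ENSSSCG00000010017), smoothelin, is a marker of fully contractile cells. It had 988.5, 786.6 and 923.1 FPKM in the NC pigs against 228.6, 383.3 and 475.2 FPKM in the HFCF pigs. The NC pigs were close together, and all 3 HFCF pigs were well below them, the first one most of all. The log2 fold change of SMTN was -1.37 (SE 0.28, limma adjusted p 0.0135), and the call was kept in 14 of 16 alternative settings.

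TAGLN (ENSSSCG00000015073), transgelin or SM22α, crosslinks actin and is an early marker of smooth muscle. It measured 6427, 5279 and 4143 FPKM in the NC pigs against 2406, 3696 and 4564 FPKM in the HFCF pigs. The third HFCF pig lay above the third NC pig, so the groups overlapped. The means were 5283 ± 1142 and 3555 ± 1086 (SD, n = 3 each). The log2 fold change of TAGLN was -0.60, its 95% interval ran from -1.35 to 0.16, and its adjusted p was 0.201 in limma. Over 16 alternative settings its adjusted p ran from 0.0849 to 1. That interval includes both no change and a halving, so TAGLN was not shown to hold its level.

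LMOD1 (ENSSSCG00000031201), leiomodin, helps to nucleate actin filaments. It had 505.1, 425.2 and 540.6 FPKM in the NC pigs against 172.4, 304.9 and 492.8 FPKM in the HFCF pigs. The HFCF pigs were spread 2.86-fold from lowest to highest, the widest of the 10 genes, and the third one lay above the second NC pig. The log2 fold change of LMOD1 was -0.72 (95% interval -1.58 to 0.13, limma adjusted p 0.176). It was -0.33 without the first HFCF pig, and without the third HFCF pig it was -1.09, with an adjusted p of 0.0422 in limma.

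CALD1 (ENSSSCG00000016535) encodes caldesmon, which binds actin, tropomyosin and myosin, and it was the 1 gene of the 10 that rose. The NC pigs stood at 81.4, 89.2 and 97.7 FPKM and the HFCF pigs at 134.1, 140.8 and 158.7 FPKM. All HFCF pigs lay above all NC pigs, and both groups were tight, with SDs of 8.15 and 12.7 FPKM. The log2 fold change was 0.69 (SE 0.14, limma adjusted p 0.013), a mean 1.62-fold higher in the HFCF group, and 14 of 16 alternative settings kept the call. The median tested gene was itself higher in the HFCF group by 0.32, and CALD1 stood 0.37 above that median. Rescaled to TPM, the CALD1 change was 0.43 with an adjusted p of 0.0778 in limma, and without the first NC pig it was 0.63 with an adjusted p of 0.0531. The gene makes a long form in smooth muscle and a short form in many other cells. The table lists 5 transcripts for CALD1 under 1 value, so the forms were not separated here.

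The thick filament was lower as well. MYH11 (ENSSSCG00000000146), the heavy chain of smooth muscle myosin, stood at 2201, 1834 and 2140 FPKM in the NC pigs (2058 ± 196.3, mean ± SD) and at 823.8, 924.6 and 1212 FPKM in the HFCF pigs (987.0 ± 201.7). The highest HFCF pig remained far below the lowest NC pig. The log2 fold change of MYH11 was -1.08 (SE 0.22, limma adjusted p 0.0122), and 13 of 16 alternative settings kept the call. The identifier of this row is next to that of MYH9, and its identity rests on the deposited symbol and description. MYL9 (ENSSSCG00000036402), the regulatory light chain that is phosphorylated at the start of contraction, had 4874, 4389 and 4037 FPKM in the NC pigs against 1979, 2499 and 3342 FPKM in the HFCF pigs. These values did not overlap either. Its log2 fold change was -0.80 (95% interval -1.41 to -0.18), and its adjusted p of 0.0596 in limma missed the threshold. MYL9 passed in 5 of 16 alternative settings, among them median-ratio scaling (adjusted p 0.0348), TPM (0.0258) and a minimum mean of 1 FPKM (0.0408).

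MYLK (ENSSSCG00000011867), the kinase that phosphorylates that light chain, was measured at 92.8, 63.9 and 105.5 FPKM in the NC pigs. The HFCF pigs had 47.8, 39.5 and 54.5 FPKM, all below the lowest NC pig. Its log2 fold change was -0.87 (SE 0.22, limma adjusted p 0.0279), and 10 of 16 alternative settings kept the call. The gene also encodes a non-muscle form and the short protein telokin, and the 7 transcripts listed for MYLK share 1 value.

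DES (ENSSSCG00000020785) encodes desmin, the intermediate filament that links dense bodies, and it fell the most as deposited. SMTN fell more than DES with quantile normalization (-1.91 against -1.88), without the first NC pig (-1.30 against -1.26) and without the second HFCF pig (-1.44 against -1.28). DES stood at 1334, 947.4 and 745.7 FPKM in the NC pigs against 333.4, 266.1 and 485.7 FPKM in the HFCF pigs. Both groups were spread by 1.79-fold and 1.83-fold between their lowest and highest pigs, and they did not overlap. The log2 fold change of DES was -1.48 (SE 0.30, limma adjusted p 0.0124), a mean 2.80-fold lower in the HFCF group, and the call was kept in 15 of 16 alternative settings.

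**Figure D2:**
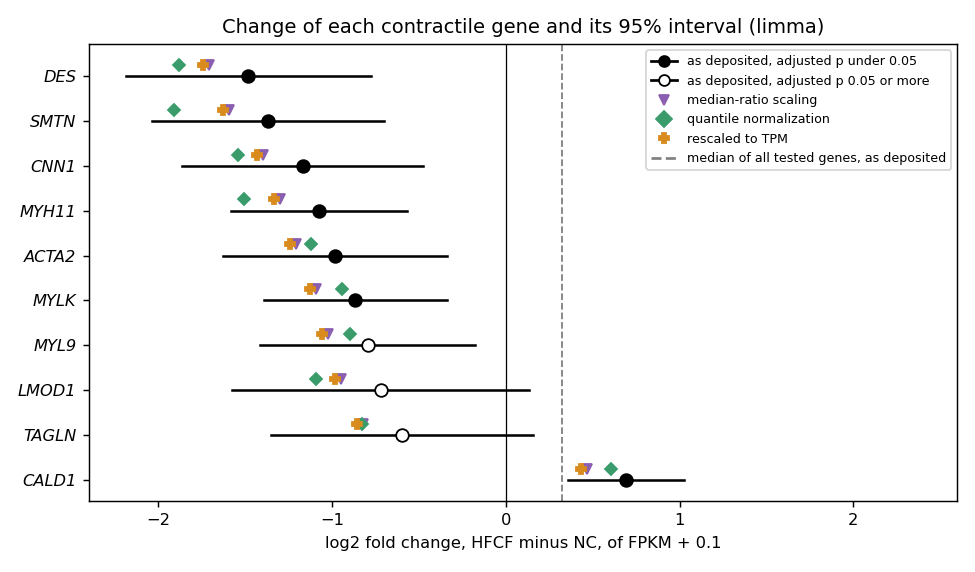
Log2 fold change of FPKM + 0.1 (HFCF minus NC, horizontal axis) for the 10 contractile genes, with 95% intervals from limma; filled circles had an adjusted p under 0.05 and open circles did not, and coloured symbols are other scalings. DES (-1.48) is at one end and CALD1 (0.69) at the other, and the dashed line marks the median of all tested genes (0.32).

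The order of the HFCF pigs was similar from gene to gene. The third HFCF pig had the highest HFCF value in all 10 genes, and the first HFCF pig had the lowest in 7. The second was lowest in ACTA2, DES and MYLK. In the NC group the first pig was highest in 7 genes and lowest in 1. The second NC pig was lowest in 4, and the third was highest in 3 and lowest in 5. The macrophage marker sum ran 2498, 1091 and 968.3 FPKM over HFCF pigs 1, 2 and 3, so the pig with the lowest summed contractile FPKM (10154) had the highest macrophage sum, and the pig with the highest contractile sum (16441.5) had the lowest. Not every marker ran in the order of the sum. CD14, CD163, CSF1R, AIF1, TYROBP and FCER1G were higher in HFCF pig 3 than in HFCF pig 2, and the other markers of the list were lower. With 3 pigs the order of these sums is a description. Leaving out single pigs moved the calls: without the first NC pig DES alone of the 10 was called lower (adjusted p 0.0490), and without the third HFCF pig 8 were. When every gene was tested with no filter on low values, limma called 0 of the 10 lower, with 3 lower at an unadjusted p under 0.05, and still called CALD1 higher.

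Whether the genes fell by the same amount was examined by setting each one against the geometric mean of the other 9 in the same pig, which removes any scaling of a library. DES, SMTN and MYH11 were lower relative to the rest without overlap, with log2 differences of -0.72, -0.59 and -0.26. CALD1 was higher relative to the rest by 1.70, a 3.25-fold change, again without overlap. For CNN1, ACTA2, MYLK, MYL9, LMOD1 and TAGLN these differences were -0.37, -0.16, -0.03, 0.05, 0.13 and 0.27, and the groups overlapped in each. The exact two-sided permutation test gave p = 0.1 for the 4 ratios without overlap, the smallest value possible, and adjusted values of 0.25 to 1 over the 10 ratios. Each ratio contains the other genes, so they are not independent of each other. The other 9 include CALD1 for every gene but itself, and its rise of 0.69 lowers those ratios in the HFCF group. The differences of DES, SMTN and MYH11 therefore do not compare them with falling genes alone, and that of MYH11 was small. The ratios of MYL9 were the tightest, at log2 values of 2.24, 2.39 and 2.24 in the NC pigs against 2.27, 2.40 and 2.34 in the HFCF pigs.

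**Figure D3:**
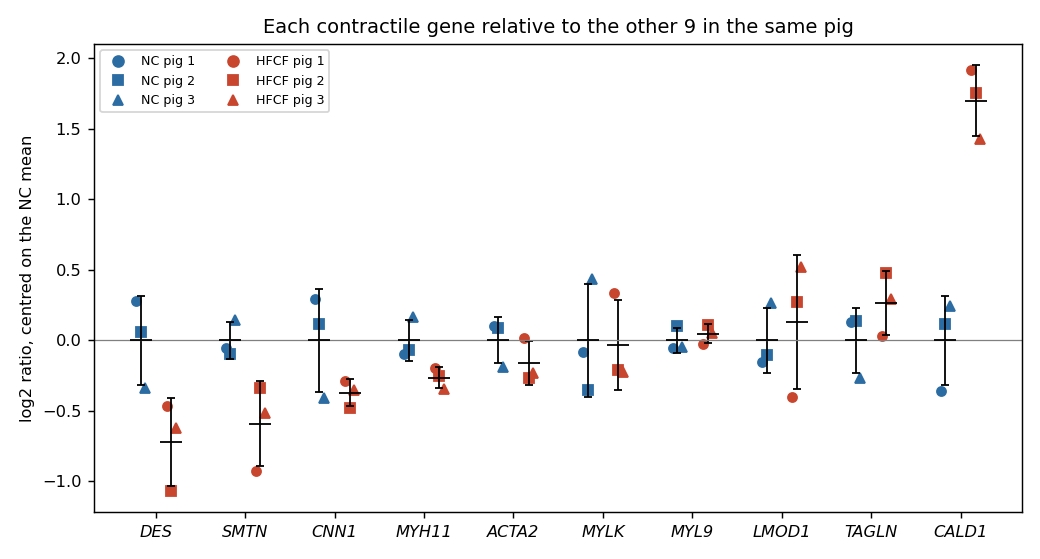
Log2 ratio of each contractile gene to the geometric mean of the other 9 in the same pig, centred on the NC mean (vertical axis), with each pig as a symbol and the mean and SD of each group as bars. CALD1 stands 1.70 higher in the HFCF group, DES, SMTN and MYH11 stand lower (-0.72, -0.59 and -0.26), and the other 6 overlap.

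Several contractile proteins have relatives made in many cell types, and 10 ratios of a contractile gene to a relative were taken within each pig. Of these relatives ACTG2 is itself an actin of smooth muscle. CNN1 relative to CNN2, a calponin of non-muscle and immune cells, was 229.5, 169.9 and 68.8 in the NC pigs against 40.9, 46.6 and 47.0 in the HFCF pigs. MYL9 relative to the row named MYL12A, a light chain of non-muscle myosin, was 125.3, 212.3 and 180.5 in the NC pigs against 58.8, 39.3 and 53.9 in the HFCF pigs. The deposited description of that row names MYL12B, so its identity is uncertain. The ratios of CNN1 to CNN2, CNN1 to CNN3, TAGLN to TAGLN2, MYL9 to MYL12A and DES to VIM were lower in the HFCF group without overlap, with log2 differences of -1.64, -1.10, -1.11, -1.76 and -1.11. Those 5 each had p = 0.1 in the exact two-sided permutation test, with adjusted values of 0.2 over the 10 ratios. The gap was narrow for DES to VIM, with the lowest NC pig at 0.394 and the highest HFCF pig at 0.393. For CNN1 to CNN3 the lowest NC pig stood at 14.9 and the highest HFCF pig at 14.2. CNN3 itself stood at 72.4 to 78.7 FPKM in the NC pigs against 62.5 to 82.8 FPKM in the HFCF pigs, with a log2 fold change of -0.07 (95% interval -0.42 to 0.28). The other relatives changed by 0.46 (CNN2), 0.52 (TAGLN2), 0.96 (MYL12A) and -0.37 (VIM), with limma adjusted p of 0.0681 to 0.243. A lower ratio to CNN2, TAGLN2 or MYL12A therefore also holds a higher mean of the relative, and is not a fall of the contractile gene alone.

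The groups overlapped in all 5 ratios of actin and of myosin heavy chain. ACTA2 relative to ACTB, the cytoplasmic β-actin, had log2 ratios of 3.24, 3.31 and 2.69 in the NC pigs against 3.02, 3.24 and 3.58 in the HFCF pigs. ACTB itself fell by 1.18 (limma adjusted p 0.0051). MYH11 relative to MYH10, the heavy chain of non-muscle myosin IIB, was 16.6, 9.48 and 11.3 in the NC pigs against 13.9, 12.6 and 18.4 in the HFCF pigs. MYH10 itself fell by 1.36 (limma adjusted p 0.0038). The differences of ACTA2 to ACTG1, ACTA2 to ACTG2 and MYH11 to MYH9 were -0.51, 0.33 and -0.18 on the log2 scale. The actins are close in sequence, and how reads shared between them were assigned is not given in the sources used here.

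**Figure D4:**
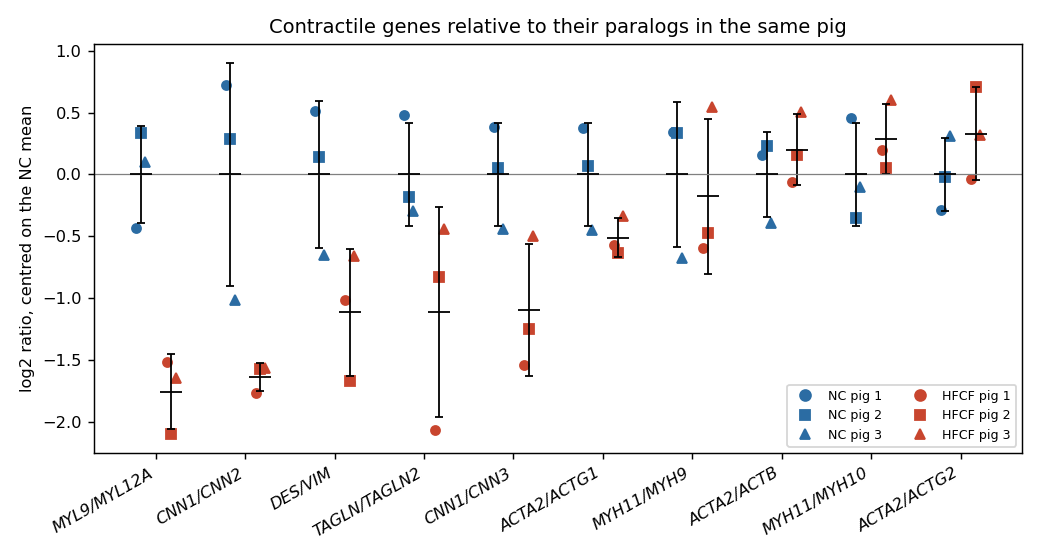
Log2 ratio of a contractile gene to a related gene in the same pig, centred on the NC mean (vertical axis), for 10 pairs, with each pig as a symbol and the mean and SD of each group as bars. The 5 pairs on the left differ by -1.76 to -1.10 between the groups without overlap, and the 5 on the right overlap.

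The other genes of the machinery were read from 5 lists of 62 genes in all, of which 58 were tested. Among them 26 were called lower, 2 were called higher and 30 were not called (limma), where 6.16% of all tested genes were lower and 22.8% higher. The median log2 fold change of the 58 was -0.64. The thin filament list had 5 tested genes with 1 lower. This was ACTG2, the γ-actin of smooth muscle, with a log2 fold change of -1.31 (limma adjusted p 0.0314). The tropomyosin genes TPM1 and TPM2, whose products lie along the actin filament, had differences of -0.44 (limma adjusted p 0.0697) and -0.54 (0.222).

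In the light chain control list 2 of 9 genes were called lower, 2 higher and 5 not, where 6.16% and 22.8% of all tested genes were called lower and higher. PPP1R12B, a targeting subunit of the myosin phosphatase, fell by 0.79 (limma adjusted p 0.0300), and the kinase DAPK3 fell by 0.98 (0.0230). Of 16 alternative settings, 8 kept the call of PPP1R12B and 11 that of DAPK3. PPP1R14A, the inhibitor of the same phosphatase known as CPI-17, rose from 207.0, 194.0 and 162.6 FPKM in the NC pigs to 298.0, 512.9 and 655.2 FPKM in the HFCF pigs. Its log2 fold change was 1.31 (limma adjusted p 0.0174), and 11 of 16 alternative settings kept the call. The direction was opposite to that of MYLK, and of MYL9, which was not called, in 3 of 3 HFCF pigs.

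The lists of actin filament anchors held most of the genes called lower. Over all tested genes 6.16% were called lower and 22.8% higher. In the dense body and intermediate filament list 9 of 14 were called lower in limma and 0 higher (also 0 higher at an unadjusted p under 0.05), with a median log2 fold change of -1.03. PALLD, palladin, an actin-bundling scaffold, had 199.4, 174.2 and 234.9 FPKM in the NC pigs against 20.2, 25.4 and 25.1 FPKM in the HFCF pigs. Its log2 fold change of -3.10 (limma adjusted p 0.0003) was past that of DES. FLNC and FLNA, filamins that crosslink actin, fell, with log2 fold changes of -2.39 and -1.44. ACTN4, an α-actinin, and PDLIM3, which binds α-actinin, fell too (-1.64 and -1.34). In the dense plaque and membrane list 12 of 19 were called lower in limma and 0 higher by either p, with a median of -0.79. PGM5, TNS1 and TLN1, which join actin to the integrin-bearing membrane, and the integrin subunit ITGA5 fell. Their log2 fold changes were -1.72, -1.52, -1.35 and -1.30. The calls of PGM5, TNS1 and TLN1 were kept in 16 of 16 alternative settings and that of ITGA5 in 9. In the list of relatives made in many cells, 2 of 11 were called lower and 0 higher in limma, with 3 in each direction at an unadjusted p under 0.05, and the median was -0.07.

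**Figure D5:**
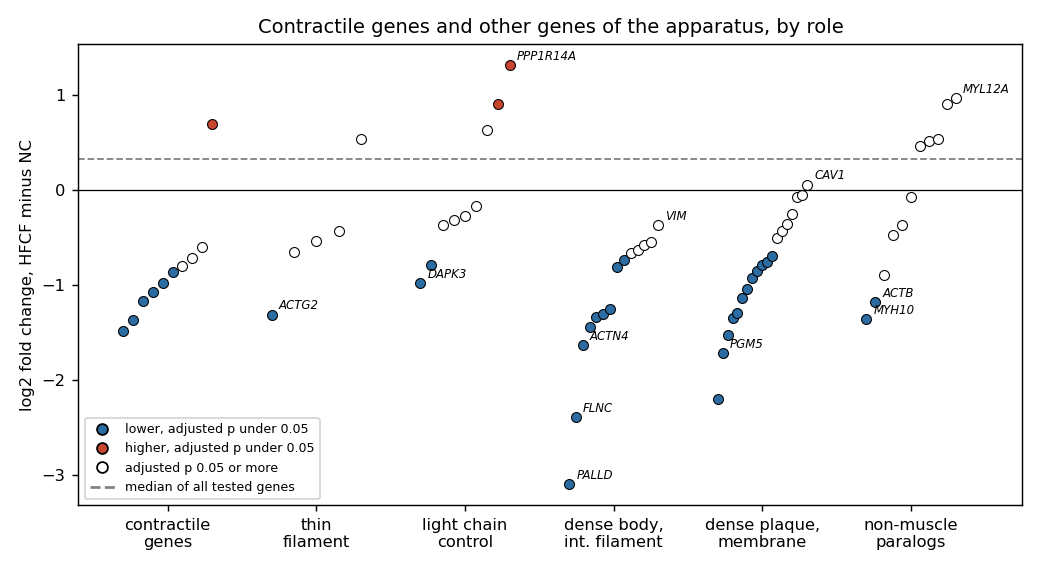
Log2 fold change (HFCF minus NC, vertical axis) of the 10 contractile genes and of the tested genes of the 5 lists, each point 1 gene, blue for lower and red for higher at an adjusted p under 0.05 in limma and white for neither. PALLD is lowest at -3.10, PPP1R14A is highest at 1.31, and the dashed line is the median of all tested genes (0.32).

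The pattern of the 10 genes over the 6 pigs was summarised as the mean of their log2 values, each centred on its own mean. This profile was 0.61, 0.32 and 0.33 in the NC pigs against -0.72, -0.50 and -0.03 in the HFCF pigs. The profile contains each of the 10 genes, so their correlations with it are partly with themselves. MYL9 followed it most closely (Pearson r = 0.992 over 6 pigs) and CALD1 ran against it (r = -0.79). Within the HFCF group alone CALD1 rose with the profile, at 134.1, 140.8 and 158.7 FPKM. In the NC group CALD1 was lowest in the pig with the highest profile. Among 9578 genes with a mean of at least 1 FPKM outside the 10, those most like the profile were ORMDL3 (r = 0.994), NMT1, EHD1, JUNB, TSPYL5, CSRP1, TMEM38A and ARHGAP10 (0.985). CSRP1, a LIM protein of smooth muscle, belongs to the dense body list, and it stood at 868.9, 720.5 and 746.1 FPKM in the NC pigs against 231.0, 332.2 and 452.9 FPKM in the HFCF pigs. In all, 330 genes had r above 0.9, and with 6 pigs in 2 groups such values are a description of likeness only.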

How the data were processed

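RNA of 6 abdominal aortas, 3 NC and 3 HFCF, had been sequenced as paired-end reads. The authors trimmed and checked the reads with cutadapt 1.9 and FastQC, aligned them with HISAT2, used StringTie for assembly, and deposited 1 FPKM value per gene and library. FPKM is relative to all mapped reads of a library, so a rise of other abundant mRNAs lowers the values of the rest. Values listed as 0.0001 were read as 0. No coordinates or sequences are given, because no genome of the build named in the methods was used here.

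The 15384 genes whose FPKM averaged 0.1 or more over all pigs entered limma 3.58.1 (R 4.3.3) on the log2(FPKM + 0.1) scale. The model held diet alone, eBayes used a trend, and p-values were adjusted over all of these genes by the Benjamini-Hochberg method. The 10 genes and all lists were chosen with earlier results of these data known. Ratios within a pig and shares of summed FPKM were compared with exact two-sided permutation tests in scipy 1.17.1. Named genes were the 10 genes, up to 5 called genes per list and direction by size of change, the relatives used in ratios and the 8 genes most like the mean profile. TPM1, TPM2 and single marker genes were named after their values were seen. Some genes that this rule takes are not reported here. A gene without a symbol was found by its deposited description, and TMOD1, MYL6 and MYL12B had no match. Relative depths were 1, 1.09 and 1.37 for NC and 1.03, 1.05 and 1.07 for HFCF.

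Alternative settings used a pseudocount of 1 or 0.01, no filter, a minimum mean FPKM of 1, median-ratio scaling, quantile normalization, TPM, eBayes without a trend, a replicate block and each library left out. Rescaling to the sum of nuclear genes was added after seeing the data. On simulated data of 15384 genes for this comparison, 20 of 100 genes changed by 1 and 71 of 100 changed by 2 on the log2 scale were recovered, with 3 false calls. Far fewer genes were changed there than were called in the data, 948 lower and 3505 higher. That makes an adjusted p under 0.05 harder to reach in the simulation, so its rates are not those of the data.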

Additional observations from a re-analysis of the deposited data

How the results depend on the processing

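Of 544 values of 34 named genes under 16 alternatives of the limma fit, 459 kept their direction and side of the threshold, 72 lost and 12 gained the call, and 1 reversed: CNN3, which ranged from -0.18 to 0.021 with 1 pig left out, the latter without the third HFCF pig (limma adjusted p 0.936). Of the 10 contractile genes, 6 were called lower as reported, 7 with median-ratio scaling, TPM, nuclear rescaling or a minimum of 1 FPKM, and 0 without a filter (3 at an unadjusted p under 0.05, limma). All 10 kept their direction in every alternative. Without a filter 584 tested genes were called lower and 1932 higher, 2 contractile genes met the study's thresholds, and 9 list genes were lower and 0 higher. Median-ratio scaling gave 1533 genes lower. Quantile normalization gave 1759 lower, 1766 higher, 1 list gene higher and 1 ratio to a relative higher without overlap. TPM gave 1527 lower, 2229 higher, 7 contractile genes by the study's thresholds, 0 contractile genes higher and 1 list gene higher. As reported, 948 genes were lower and 3505 higher, and nuclear rescaling gave 1285 and 2643. The median of all tested genes was 0.32 as deposited, 0.12 with median-ratio scaling, -0.06 with quantile normalization, 0.09 with TPM and 0.18 with nuclear rescaling. Without the 100 most abundant other genes the share differed by -6.01 percentage points. The cause of these shifts was not tested.

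Same-numbered pigs showed no shared deviation from their group means (r = 0.02, -0.08 and -0.07), and pigs of unlike numbers gave -0.07 to 0.13. With 3 pigs in a group these values cannot exclude a pairing. With the replicate block 540 genes were lower and 2232 higher, 4 contractile genes were lower and 1 higher, and 17 list genes were lower and 1 higher.

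Leaving out 1 pig at a time gave 438 to 784 genes lower and 1961 to 2800 higher, 1 to 8 contractile genes lower, 0 to 1 higher and 3 to 7 by the study's thresholds. List genes numbered 15 to 23 lower and 0 to 3 higher, and the share differed by -5.09 to -3.79 percentage points. Ratios to the other 9 without overlap numbered 3 to 5 lower and 1 to 3 higher, and ratios to relatives 5 to 6 lower and 0 to 1 higher. Contractile genes called lower numbered 1, 4 and 4 without NC pigs 1, 2 and 3, and 3, 2 and 8 without HFCF pigs 1, 2 and 3. The absolute depth of the libraries is unknown.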

Other observations

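Other cell types of the vessel wall were read from marker lists as values beside the contractile genes. Over all tested genes 6.16% were called lower and 22.8% higher in limma, and the counts below stand beside those shares. The 8 fibroblast markers summed to 5210, 6724 and 3630 FPKM in the NC pigs against 3697, 4390 and 6635 FPKM in the HFCF pigs, and 1, LUM, was called higher with 0 lower (limma). The 7 endothelial markers summed to 205.9, 230.5 and 128.3 FPKM in the NC pigs against 256.7, 160.8 and 104.8 FPKM in the HFCF pigs, with 0 called in limma and 2 higher at an unadjusted p under 0.05. The 6 adipocyte markers summed to 102.0, 153.6 and 18.2 FPKM in the NC pigs against 18.2, 11.1 and 32.0 FPKM in the HFCF pigs, and only PLIN4 was called, lower. T cell markers summed to 0.51 to 0.90 FPKM in the NC pigs against 2.49 to 10.9 FPKM in the HFCF pigs, with 2 of 6 called higher. Schwann cell markers summed to 11.6 to 28.6 and 11.1 to 25.5 FPKM, with 0 of 5 called in limma and 1 in each direction at an unadjusted p under 0.05. The part of these cells in the contractile values was not tested.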
